A study of Caenorhabditis elegans with 4 samples.

Results

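The genes described here encode the cuticlins and the related zona pellucida proteins of the nematode Caenorhabditis elegans. They were taken as every gene of both deposited tables whose symbol in the WBcel235 annotation begins with cut-, cutl- or noah- and a number. This gave 37 genes (6 cut, 29 cutl and 2 noah) of 16623 genes found in both tables and 17491 found in either.

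The 4 samples described by the labels hold RNA of depleted L2/L3 larvae that had fed for 24 h at 22 °C after hatching and starvation as L1 larvae, and that then spent 2 h on plates with auxin at 1 mM. In strain AM11 the topoisomerase II TOP-2 carried a degron and GFP, as did DPY-27, so that auxin depleted both proteins. Strain AM12 carried the same tags on the topoisomerase I TOP-1 and on DPY-27. These are called the TOP-2/DPY-27 and the TOP-1/DPY-27 depletion. DPY-27 is a subunit of condensin DC, the complex that lowers expression from the X chromosomes of hermaphrodites, and every depletion studied here removed it along with a topoisomerase. The control was the strain CA1200, also after 2 h on auxin, which is known as a strain that makes the plant F-box protein TIR1, needed for degradation, from the eft-3 promoter. The control libraries are not among those 4 samples, so beyond the strain, the auxin and its 2 h, which the file names give, their growth, staging, day and batch are not described by the labels used here. Depletion cannot be told apart from the tags, the strain background or any such difference in handling. Each depletion had 2 libraries, called biological replicates in the series' design text without a word on separate cultures, so the p-values measure only the spread between these libraries.

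Nematodes are covered by a collagen cuticle that is rebuilt at every moult. Before the collagen layers form, the epidermis lays down a sheath of glycoproteins, the precuticle, many of which hold a zona pellucida domain, a module by which such proteins join into filaments. The NOAH proteins belong to this precuticle and are related to Drosophila NompA. The cuticlins proper were first known from the insoluble residue of the cuticle, and CUT-1, CUT-3, CUT-5 and CUT-6 help to shape the alae, the ridges over the seam cells, and the body width at particular stages. CUT-2 is a cuticlin of the insoluble residue without a zona pellucida domain. Most cutl genes are named only for their likeness to cuticlins. Transcripts of many cuticle genes come and go with each moulting cycle, so their levels depend on how far a culture has gone through its larval stage.

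The authors deposited, for each gene and comparison, a mean normalized count over the libraries, a log2 fold change of depletion over control with its standard error (SE), and DESeq2 p-values with and without adjustment. Those means were printed to 15 digits, which fixed the whole reads behind them in each library for 16346 of the 16623 genes (98.3%) and for all 37 genes of the family. The solution held 2 control libraries, and the control reads of 16032 genes solved from each table alone were identical between the tables for all 16032. Reads over the solved genes came to 8317737 and 7403765 in the TOP-2/DPY-27 depletion, 7960992 and 6792968 in the TOP-1/DPY-27 depletion, and 11140791 and 9194592 in the control. Within each group the libraries are called a and b by decreasing size factor, since the solution does not tie them to the submitters' replicate numbers. Normalized counts below are these reads on a scale common to the 6 libraries. Both depletions share the control libraries, so their changes against the control are not independent of each other.

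Against the control, pharyngeal muscle transcripts were much higher in both depletions. The 6 genes of the list (the myosin genes myo-1, myo-2 and myo-5, the troponin genes tnc-2 and tni-4, and ceh-22) summed to 48698 and 35456 normalized counts after TOP-2/DPY-27 depletion and to 40128 and 19395 after TOP-1/DPY-27 depletion, against 561 and 458 in the control. In the authors' deposited tables the genes other than ceh-22 lay between 5.10 and 6.83 on the log2 scale in both depletions, and ceh-22 was at 4.92 ± 0.79 after TOP-2/DPY-27 depletion and 4.88 ± 1.93 after TOP-1/DPY-27 depletion, beside 4.39 ± 1.16 for the family's highest call, cutl-5 after TOP-2/DPY-27 depletion. Markers of position along the body moved in opposite directions in the authors' deposited tables. The anterior and mid-body Hox genes ceh-13 and lin-39 rose in both depletions, by 2.04 or more on the log2 scale, while the posterior Hox genes egl-5, php-3 and nob-1 lay between -2.81 and -2.23 and were called lower in both, and mab-5 was not called. Germline markers rose for 4 of 5 genes in both, summing to 3615 and 5724 after TOP-2/DPY-27 depletion and to 2403 and 4013 after TOP-1/DPY-27 depletion, against 1496 and 1014 in the control. Most of that control sum was mex-3, which was not called and had 598 and 655 normalized counts after TOP-2/DPY-27 depletion and 503 and 579 after TOP-1/DPY-27 depletion, against 1288 and 725 in the control. Those that rose were higher by more than the sums show, as for the germ granule helicase gene glh-1, at 1496 and 2650 after TOP-2/DPY-27 depletion and 989.8 and 1711 after TOP-1/DPY-27 depletion, against 121 and 169 in the control. The part that such differences in the tissues represented have in the values of the family was not tested. In bulk RNA of this kind, fewer cells of a type and less RNA per cell cannot be told apart.

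Levels within the family spanned more than 4 orders of magnitude per length of exon. After TOP-2/DPY-27 depletion cut-2 had 22148 normalized counts per kb of exon, after TOP-1/DPY-27 depletion 13028, and in the control 18423. The noah genes followed. After TOP-2/DPY-27 depletion noah-2 had 1775 per kb, after TOP-1/DPY-27 depletion 1016 and in the control 4834, and noah-1 had 1328 after TOP-2/DPY-27 depletion, 663 after TOP-1/DPY-27 depletion and 3285 in the control. In the control cutl-20 came next at 1133 per kb, then cut-4 at 814, cutl-29 at 454, cutl-15 at 314 and cutl-26 at 261. At the other end cut-1, cutl-1, cutl-2, cutl-7 and cutl-13 had at most 3 reads in every library and no adjusted p in either table. Among them cutl-1, with 2 reads in each control library, had none in any of the 4 depletion libraries, where a count of 0 allows up to 3 reads per library, so no difference was detectable at this depth. CUT-1 is known as a cuticlin of the dauer stage, and its gene had between 0 and 3 reads in each of the 6 libraries.

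**Figure D1:**
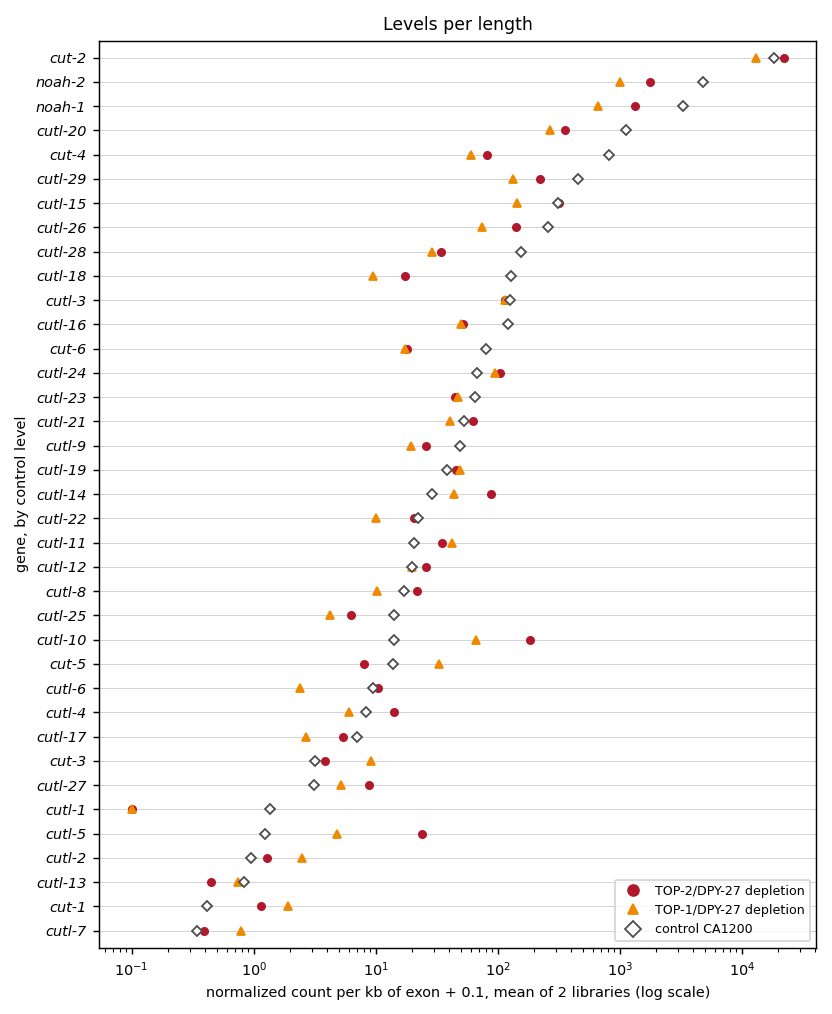
Mean of the 2 libraries of each group in normalized counts per kb of exon, with 0.1 added for the log scale, for the 37 genes ordered by control level. The gene cut-2 stands highest in all groups at 13028 to 22148 per kb, and cutl-18, cut-4 and cut-6 show the controls (open diamonds) well to the right of both depletions.

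After TOP-2/DPY-27 depletion 7 members fell and 3 rose among 32 with an adjusted p. Over all genes tested, 7.47% were called lower and 14.1% higher in that comparison. The genes that fell were cut-4, cut-6, cutl-16, cutl-18, cutl-20, cutl-28 and cutl-29, and those that rose were cutl-5, cutl-10 and cutl-14. The median log2 fold change was -0.10 over the 31 members with a mean of at least 10, against -0.03 over all such genes.

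After TOP-1/DPY-27 depletion 11 members fell and 1 rose among 32 with an adjusted p, where 12.8% of all genes tested were called lower and 17.1% higher. The genes that fell were cut-4, cut-6, cutl-15, cutl-16, cutl-18, cutl-20, cutl-26, cutl-28, cutl-29, noah-1 and noah-2, and the gene that rose was cutl-10. The median log2 fold change was -1.11 over the 29 members with a mean of at least 10, against -0.04 over all such genes. Among the same 29 members, both depletion libraries lay below both control libraries for 17 and above them for 6, where 36.7% of all genes of that mean lay below and 34.8% above. After TOP-2/DPY-27 depletion the corresponding counts were 10 below and 8 above of 31 members, where 34.1% of all genes of that mean lay below and 32.5% above.

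**Figure D2:**
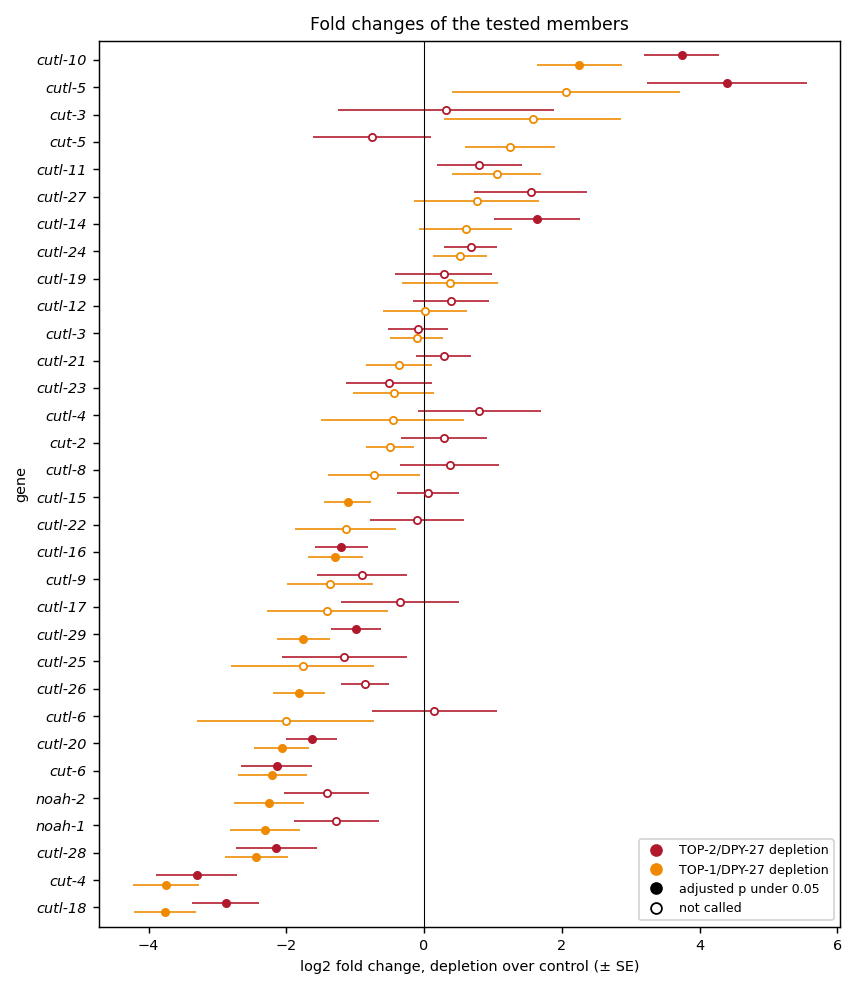
Log2 fold change of depletion over control with its SE, from the authors' deposited tables, for the 32 members with an adjusted p, ordered by the change after TOP-1/DPY-27 depletion. Filled points passed the test, from cutl-18 and cut-4 below -2.8 in both depletions to cutl-10 above 2.2 in both.

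The precuticle genes noah-1 and noah-2, which hold the epidermis and its matrix together and are needed for moulting, were among the most abundant members and varied strongly between libraries. For noah-1 the normalized counts were 2723 and 7363 after TOP-2/DPY-27 depletion and 1587 and 3445 after TOP-1/DPY-27 depletion, against 19081 and 5856 in the control. For noah-2 they were 2283 and 6824 after TOP-2/DPY-27 depletion and 1452 and 3761 after TOP-1/DPY-27 depletion, against 18521 and 6286 in the control. Control library a stood high for both genes, and TOP-2 library b lay above control library b. The TOP-1 libraries therefore lay below both controls without overlap, while the TOP-2 libraries overlapped the control.

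After TOP-1/DPY-27 depletion noah-1 fell by 2.31 ± 0.51 on the log2 scale in the authors' deposited table (4.96-fold lower, DESeq2 adjusted p 4.96e-05). The fall of noah-2 there was 2.25 ± 0.51 (4.77-fold lower, DESeq2 adjusted p 9.6e-05, authors' deposited table). After TOP-2/DPY-27 depletion neither passed, at -1.27 ± 0.62 for noah-1 (adjusted p 0.135) and -1.41 ± 0.62 for noah-2 (adjusted p 0.0886) in the authors' deposited table. The values rest on single libraries to a large extent. Without control library a, the mean change after TOP-1/DPY-27 depletion was -1.21 for noah-1 and -1.26 for noah-2, without TOP-1 library b it was -2.97 for noah-1 and -3.09 for noah-2, and without control library b it was -2.93 for noah-1. In limma fits with the same library left out, neither gene was called without control library a (adjusted p 0.0618 for noah-1 and 0.0758 for noah-2), without TOP-1 library a (0.257 for noah-1 and 0.268 for noah-2) or without TOP-1 library b (0.0715 for noah-1 and 0.0535 for noah-2).

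Of the cut genes, cut-2 was the most abundant member of the family and passed neither test. It had 7284 and 33778 normalized counts after TOP-2/DPY-27 depletion and 9886 and 14268 after TOP-1/DPY-27 depletion, against 13311 and 20845 in the control. TOP-2 library b was the highest of the 6 and TOP-2 library a the lowest, so both depletions overlapped the control. The authors' deposited tables gave it 0.29 ± 0.63 (adjusted p 0.804) after TOP-2/DPY-27 depletion and -0.49 ± 0.35 (adjusted p 0.306) after TOP-1/DPY-27 depletion.

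The gene cut-4, a cuticlin gene, fell in both depletions. It had 88.0 and 205 normalized counts after TOP-2/DPY-27 depletion and 136 and 78.7 after TOP-1/DPY-27 depletion, against 761 and 2163 in the control. Every depletion library lay below both controls, and control library b was the higher of the pair, unlike for the noah genes. In the authors' deposited tables it was at -3.30 ± 0.59 on the log2 scale after TOP-2/DPY-27 depletion (9.85-fold lower, adjusted p 4.65e-07) and at -3.75 ± 0.48 after TOP-1/DPY-27 depletion (13.4-fold lower, adjusted p 2.94e-13). Without control library b the mean change was -2.34 after TOP-2/DPY-27 depletion and -2.82 after TOP-1/DPY-27 depletion, and without TOP-2 library b it was -4.03 after TOP-2/DPY-27 depletion. In limma fits the call after TOP-2/DPY-27 depletion was lost without TOP-2 library a (-2.62, adjusted p 0.0603) and without control library b (-2.45, adjusted p 0.0701).

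The gene cut-6, whose protein takes part in the dauer alae, was 4.41-fold lower after TOP-2/DPY-27 depletion and 4.60-fold lower after TOP-1/DPY-27 depletion. Its normalized counts were 22.5 and 43.7 after TOP-2/DPY-27 depletion and 23.4 and 41.1 after TOP-1/DPY-27 depletion, against 142 and 154 in the control. The depletion libraries covered nearly the same range and the control libraries lay close together above them. Its log2 fold change was -2.14 ± 0.51 after TOP-2/DPY-27 depletion (adjusted p 0.000309) and -2.201 ± 0.49 after TOP-1/DPY-27 depletion (adjusted p 8.28e-05) in the authors' deposited tables. By limma the TOP-2/DPY-27 call was lost without control library a (-2.25, adjusted p 0.0766) or b (-2.11, adjusted p 0.0894).

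The remaining cut genes with an adjusted p were cut-3 and cut-5, whose proteins serve the alae of L1 larvae, and both were low. The gene cut-5 had 14.04 and 7.66 normalized counts after TOP-2/DPY-27 depletion and 47.9 and 41.1 after TOP-1/DPY-27 depletion, against 20.4 and 17.03 in the control. The TOP-2 libraries lay below and the TOP-1 libraries above both control libraries. In the authors' deposited tables its change was -0.75 ± 0.86 after TOP-2/DPY-27 depletion (adjusted p 0.601) and 1.25 ± 0.65 after TOP-1/DPY-27 depletion (adjusted p 0.139). The gene is X-linked, and with the median of the X subtracted these values became -1.29 after TOP-2/DPY-27 depletion (adjusted p 0.336) and 0.57 after TOP-1/DPY-27 depletion (adjusted p 0.582). Only limma on the solved reads of all libraries called cut-5 higher after TOP-1/DPY-27 depletion, at 1.21 (adjusted p 0.0468). For cut-3 the values of all groups overlapped, at 8.42 and 1.09 normalized counts after TOP-2/DPY-27 depletion and 18.3 and 4.70 after TOP-1/DPY-27 depletion, against 3.14 and 4.73 in the control.

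Among the cutl genes, cutl-18 fell most. It had 28.1 and 59.1 normalized counts after TOP-2/DPY-27 depletion and 25.5 and 22.3 after TOP-1/DPY-27 depletion, against 373 and 279 in the control. No depletion library came near the control libraries. The authors' deposited tables gave -2.88 ± 0.49 after TOP-2/DPY-27 depletion (7.37-fold lower, adjusted p 7.9e-08) and -3.76 ± 0.45 after TOP-1/DPY-27 depletion (13.6-fold lower, adjusted p 2.6e-15). Without TOP-2 library b the change after TOP-2/DPY-27 depletion was -3.50, and the limma call of that depletion was lost without control library a (-2.73, adjusted p 0.0558).

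The neighbours cutl-28 and cutl-26 on chromosome IV, with 1 protein-coding gene between them, both fell after TOP-1/DPY-27 depletion. For cutl-28 the normalized counts were 40.2 and 118 after TOP-2/DPY-27 depletion and 49.9 and 82.2 after TOP-1/DPY-27 depletion, against 466 and 246 in the control. For cutl-26 they were 243 and 219.8 after TOP-2/DPY-27 depletion and 139.5 and 103 after TOP-1/DPY-27 depletion, against 469 and 389 in the control. The depletion libraries lay below the controls for both genes, and those of TOP-2 lay above those of TOP-1 only for cutl-26. In the authors' deposited tables cutl-28 was at -2.14 ± 0.58 (adjusted p 0.00212) after TOP-2/DPY-27 depletion and at -2.43 ± 0.46 (adjusted p 1.83e-06) after TOP-1/DPY-27 depletion. The values of cutl-26 in the authors' deposited tables were -0.86 ± 0.35 after TOP-2/DPY-27 depletion (adjusted p 0.06, not called) and -1.81 ± 0.38 after TOP-1/DPY-27 depletion (adjusted p 1.76e-05). For the call of cutl-28 after TOP-2/DPY-27 depletion, the mean change was -3.11 without TOP-2 library b. By limma that call was lost without TOP-2 library a (-1.49, adjusted p 0.116), control library a (-1.80, adjusted p 0.175) or control library b (-2.70, adjusted p 0.0896).

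The genes cutl-20, cutl-29 and cutl-16 fell by smaller amounts in both depletions. For cutl-20 the libraries held 484 and 435 normalized counts after TOP-2/DPY-27 depletion and 450.1 and 237 after TOP-1/DPY-27 depletion, against 1158 and 1744 in the control. In every depletion library cutl-20 lay well below both controls. Its change was -1.63 ± 0.37 after TOP-2/DPY-27 depletion (adjusted p 0.000118) and -2.07 ± 0.40 after TOP-1/DPY-27 depletion (adjusted p 2.95e-06) in the authors' deposited tables. Exons of cutl-20 share 221 nt on the same strand with shc-1, which is 17.3% of its exonic length, so its reads are uncertain. For cutl-29, on the X, the counts were 334 and 296 after TOP-2/DPY-27 depletion and 234 and 145 after TOP-1/DPY-27 depletion, against 749.7 and 532 in the control. The TOP-1 libraries of cutl-29 were the lowest, the TOP-2 libraries came next and the control libraries highest. The authors' deposited tables gave it -0.99 ± 0.36 after TOP-2/DPY-27 depletion (adjusted p 0.0316) and -1.75 ± 0.39 after TOP-1/DPY-27 depletion (adjusted p 7.26e-05). For cutl-16 the values were 99.2 and 95.2 after TOP-2/DPY-27 depletion and 105 and 81.1 after TOP-1/DPY-27 depletion, against 242 and 215 in the control. The depletion libraries of cutl-16 covered a common range, below both controls. Its change was -1.20 ± 0.38 after TOP-2/DPY-27 depletion (adjusted p 0.0107) and -1.29 ± 0.40 after TOP-1/DPY-27 depletion (adjusted p 0.00709) in the authors' deposited tables.

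With 1 library left out and limma in place of the deposited test, these smaller calls were lost in several fits. After TOP-2/DPY-27 depletion cutl-20 was not called without TOP-2 library a (-1.68, adjusted p 0.0591) or b (-1.52, adjusted p 0.0757). In the same comparison cutl-16 was called in none of the 4 fits (-1.27 to -1.12, adjusted p 0.0681 to 0.107), and cutl-29 was called without control library b but not without TOP-2 library a, TOP-2 library b or control library a (-1.06 to -0.74, adjusted p 0.106 to 0.21). After TOP-1/DPY-27 depletion cutl-16 (-1.10, adjusted p 0.106) and cutl-29 (-1.41, adjusted p 0.0597) were not called without TOP-1 library b. In these fits the group left with 1 library is taken to vary like the other.

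The gene cutl-15 was called after TOP-1/DPY-27 depletion and not after TOP-2/DPY-27 depletion, and its difference between the depletions did not pass after adjustment. It had 306 and 639.8 normalized counts after TOP-2/DPY-27 depletion and 208 and 221 after TOP-1/DPY-27 depletion, against 434 and 496 in the control. The TOP-2 libraries lay on either side of the control, and the TOP-1 libraries lay below it. The authors' deposited tables gave 0.05 ± 0.45 after TOP-2/DPY-27 depletion (adjusted p 0.955) and -1.11 ± 0.34 after TOP-1/DPY-27 depletion (adjusted p 0.00648). The limma call after TOP-1/DPY-27 depletion was lost without TOP-1 library a (-1.07, adjusted p 0.0972) or b (-1.14, adjusted p 0.0823).

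The members that rose were low in the control. The gene cutl-10 had 309.7 and 171 normalized counts after TOP-2/DPY-27 depletion and 114 and 59.9 after TOP-1/DPY-27 depletion, against 13.3 and 23.6 in the control. All 4 depletion libraries lay above both controls, those of TOP-2 highest. In the authors' deposited tables it rose by 3.74 ± 0.54 after TOP-2/DPY-27 depletion (13.3-fold, adjusted p 2.67e-10) and by 2.25 ± 0.61 after TOP-1/DPY-27 depletion (4.77-fold, adjusted p 0.00148). Without TOP-1 library a its limma call in the TOP-1/DPY-27 comparison was lost (1.70, adjusted p 0.0962).

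The gene cutl-5 had 16 and 50 reads after TOP-2/DPY-27 depletion and 9 and 4 reads after TOP-1/DPY-27 depletion, against 3 and 1 reads in the control. In the authors' deposited table it rose by 4.39 ± 1.16 after TOP-2/DPY-27 depletion (adjusted p 0.00139), and after TOP-1/DPY-27 depletion it stood at 2.06 ± 1.65 (adjusted p 0.375). The rise rests on 4 control reads in all. The mean change was 5.08 without TOP-2 library a, 3.22 without TOP-2 library b and 5.22 without control library a. By limma the call was lost without TOP-2 library b (2.70, adjusted p 0.0852), control library a (4.00, adjusted p 0.0764) or control library b (3.21, adjusted p 0.111).

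The gene cutl-14 had 75.8 and 102 normalized counts after TOP-2/DPY-27 depletion and 42.8 and 44.6 after TOP-1/DPY-27 depletion, against 15.7 and 42.6 in the control. The TOP-1 libraries lay only just above control library b. The authors' deposited tables gave 1.64 ± 0.63 after TOP-2/DPY-27 depletion (adjusted p 0.043) and 0.60 ± 0.67 after TOP-1/DPY-27 depletion (adjusted p 0.549). The first value was 2.54 without control library b, and limma called it with that library left out but not with all libraries (1.75, adjusted p 0.0676). It was not called by limma without TOP-2 library a (1.96, adjusted p 0.144), TOP-2 library b (1.54, adjusted p 0.234) or control library a (1.05, adjusted p 0.161).

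**Figure D3:**
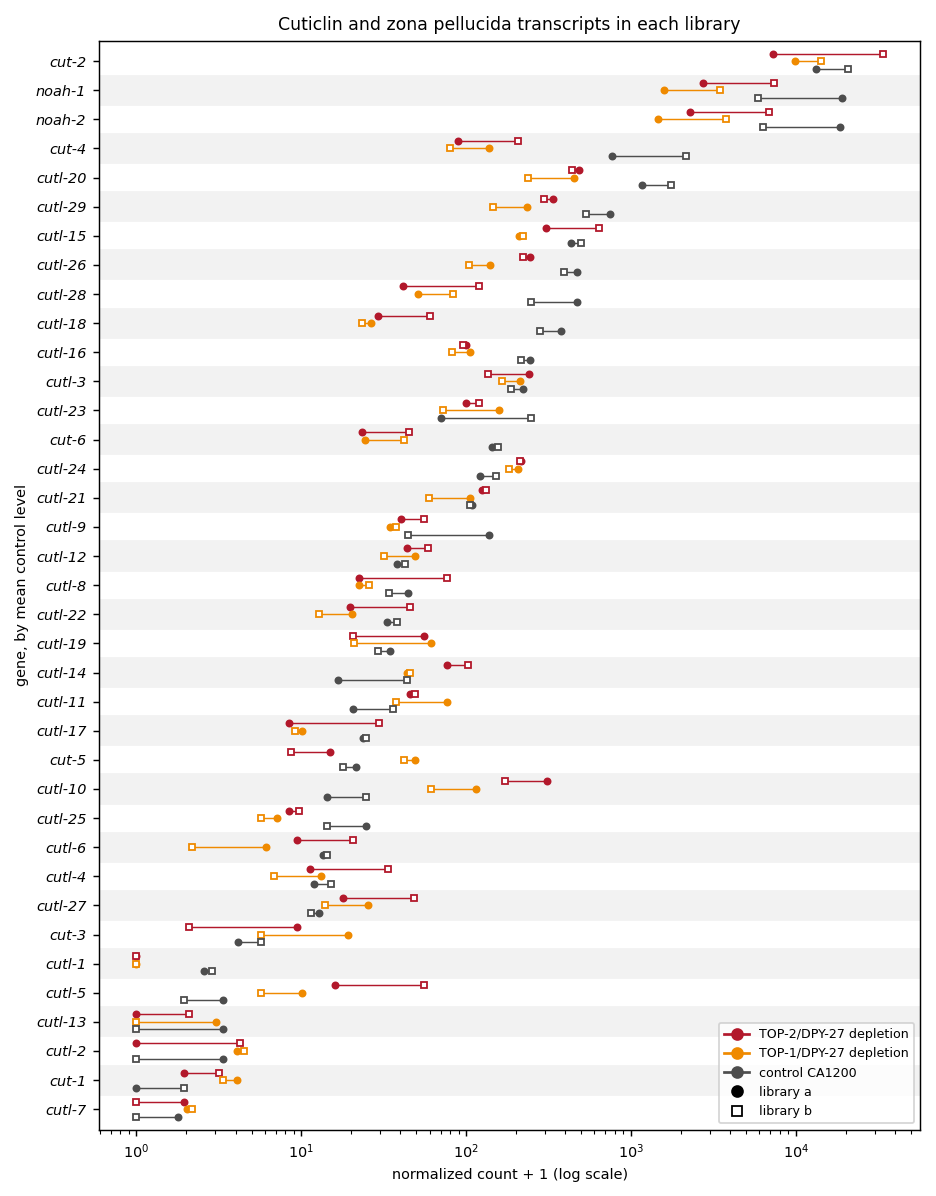
Normalized count plus 1 of each of the 37 genes in each library, on a log scale, with the libraries of a group joined by a line. The TOP-2 and TOP-1 depletions lie left of the control for cut-4, cut-6 and cutl-18 and right of it for cutl-10, and long lines for cut-2, noah-1 and noah-2 show how far the libraries of a group lay apart.

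The members left over, tested but called in neither depletion, were cut-2, cut-3, cut-5 and 15 cutl genes. Their log2 fold changes in the authors' deposited tables ran from -1.16 (cutl-25) to 1.55 (cutl-27) after TOP-2/DPY-27 depletion and from -2.01 (cutl-6) to 1.57 (cut-3) after TOP-1/DPY-27 depletion. The best measured of the cutl genes among them were cutl-3, with 239 and 136 normalized counts after TOP-2/DPY-27 depletion and 212 and 164.5 after TOP-1/DPY-27 depletion against 219.8 and 187 in the control, and cutl-24. For cutl-24 the counts were 213 and 212 after TOP-2/DPY-27 depletion and 205 and 181 after TOP-1/DPY-27 depletion, against 121 and 150.4 in the control. The groups of cutl-3 overlapped, while all depletion libraries of cutl-24 lay above the control without passing the test, at 0.68 ± 0.38 after TOP-2/DPY-27 depletion (adjusted p 0.214) and 0.52 ± 0.39 after TOP-1/DPY-27 depletion (adjusted p 0.345) in the authors' deposited tables. Among these members cutl-9 and cutl-23 had the widest gap between the control libraries, at 136 and 43.5 normalized counts for cutl-9 and 69.1 and 247 for cutl-23.

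The depletions were compared with each other through the difference of their log2 fold changes, in which the common control cancels. None of the 29 members with a mean of at least 10 in both tables passed (smallest adjusted p 0.9997), where 0.0691% of 13027 genes were called higher and 0.0461% lower. The SE of this Wald test counts the control spread for each depletion and so overstates the error. At an unadjusted p under 0.05 it gave 1 of the 29 members higher, cutl-15 (1.16 ± 0.57), and 0 lower, where 3.12% of all genes were higher and 1.5% lower, so the members did not exceed the background. A limma fit of the 4 depletion libraries called 0 members as well, with a smallest adjusted p of 0.112, for cut-5. At an unadjusted p under 0.05 that fit gave 5 of the 29 members higher and 1 lower, where 10.8% of 12750 genes were higher and 10.6% lower. Only the total of 6 members is close to the background of 21.4%. The members leaned to higher where all genes were nearly even, and this lean was not tested.

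The differences lay above 0 for 25 of the 29 members, where 6940 of all 13027 genes lay above 0. Their median was 0.65 in the family against 0.04 over all genes. Every other gene list used here also had a median above that of all genes, from 0.25 (Hox genes and partners) to 1.76 (pharyngeal cuticle proteins). The moulting genes had 0.53, with 19 of 23 above 0. Within the family the differences ran from -2.003 ± 1.08 for cut-5 to 1.48 ± 0.82 for cutl-10, with noah-1 at 1.04 ± 0.80, noah-2 at 0.84 ± 0.80 and cut-4 at 0.45 ± 0.76. TOP-2 library b was the higher library of its pair for 12 of the 19 members with a mean of at least 50, where it was so for 5292 of 10531 genes. With TOP-2 library a left out, limma called 1 member, cutl-15, higher in the TOP-2 than in the TOP-1 depletion, where 2.42% of all genes were called higher, so a single call among 29 members is near the background. Of the uncalled members, only cut-2, cut-5, noah-1 and noah-2 were followed through the fits with 1 library left out. Among them, the differences of cut-2 (-0.71) and noah-2 (-0.034) turned below 0 with TOP-2 library b left out. TOP-2 library a lay below both TOP-1 libraries for other members as well, cut-6 and cutl-28 among them. How many of the 25 members would stay above 0 without TOP-2 library b was not counted.

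**Figure D4:**
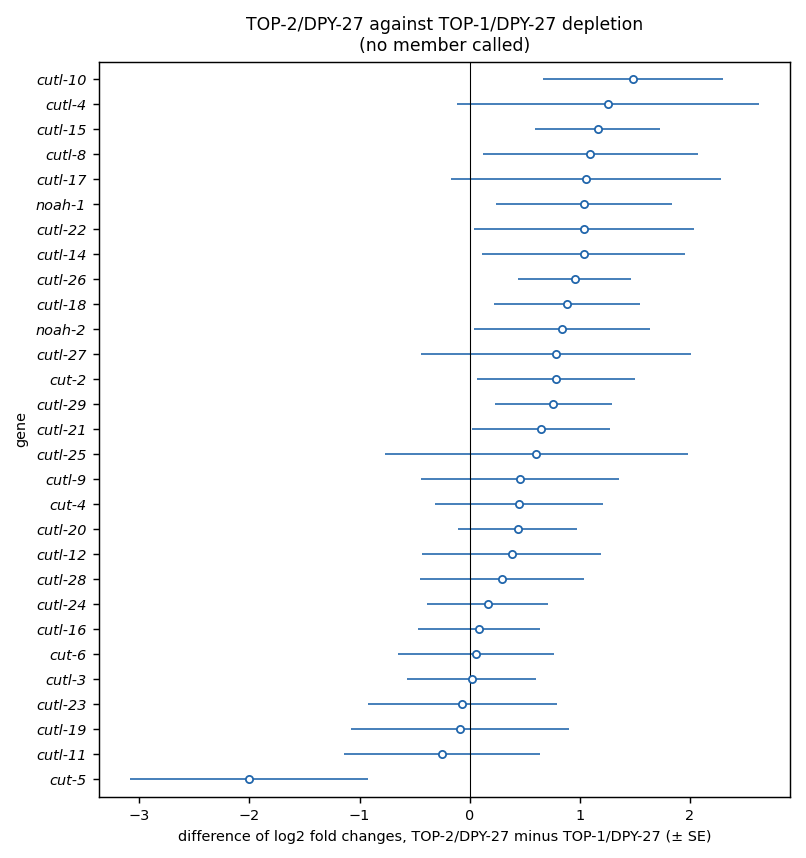
Difference of log2 fold changes, TOP-2/DPY-27 minus TOP-1/DPY-27 depletion, with the SE from both deposited SEs taken as independent, for 29 members. Most points lie above 0 and none passed the test, and cut-5 lies lowest at -2.003.

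Libraries of the same group lay further apart for this family than over all genes at the median, which was not tested further. Over the 19 members with a mean of at least 50, the median absolute log2 ratio between the libraries of a group was 0.81 in the TOP-2/DPY-27 depletion, 0.69 in the TOP-1/DPY-27 depletion and 0.59 in the control, against 0.24 (TOP-2), 0.25 (TOP-1) and 0.35 (control) over 10531 genes. The ratio reached 2-fold for 7 members in the TOP-2/DPY-27 depletion (7.85% of all genes), 3 in the TOP-1/DPY-27 depletion (4.6%) and 6 in the control (9.65%). The noah genes, the precuticle genes without a zona pellucida domain and the furrow collagens leaned to the same library in each group. The furrow collagens, which build the circumferential furrows of the cuticle, had median log2 ratios of 1.73 (TOP-2 library b over a), 1.40 (TOP-1 library b over a) and 1.31 (control library a over b). The precuticle list had 1.63 (TOP-2), 1.10 (TOP-1) and 1.49 (control) in the same ratios. Whether the phase of the moulting cycle differed between libraries was not tested.

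**Figure D5:**
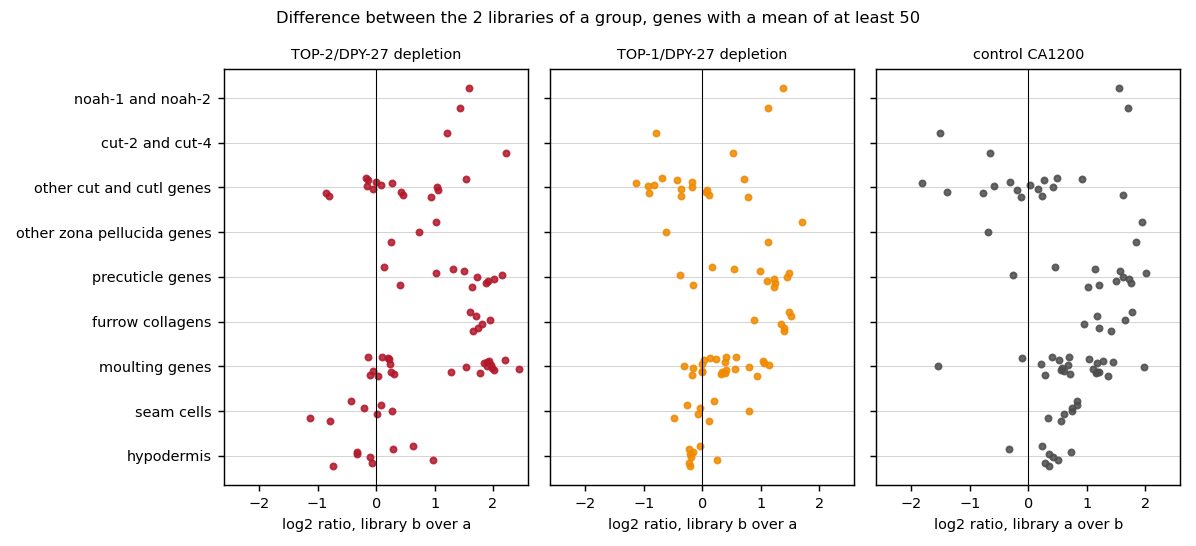
Log2 ratio between the 2 libraries of each group, library b over a for the depletions and a over b for the control, for genes with a mean of at least 50. Furrow collagens lie at median ratios of 1.73, 1.40 and 1.31 from left to right, and noah-1 and noah-2 lie on the same side in every panel, while the other cut and cutl genes spread around 0.

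Genes that act around these proteins were read from lists. Of 4 other zona pellucida genes (let-653, dyf-7, ram-5 and fbn-1), 0 were called after TOP-2/DPY-27 depletion and 2 fell after TOP-1/DPY-27 depletion. These were let-653, at -1.33 ± 0.53 (adjusted p 0.0427), and fbn-1, a fibrillin-like gene, at -2.89 ± 1.14 (adjusted p 0.0402) in the authors' deposited table. For let-653 the TOP-1 libraries, at 286 and 627 normalized counts, overlapped the control, at 1791 and 501, while for fbn-1 they lay below it. Of 11 precuticle genes without a zona pellucida domain, 1 fell after TOP-2/DPY-27 depletion, the lipocalin gene lpr-1 at -1.99 ± 0.63 (adjusted p 0.0107) in the authors' deposited table, and 3 fell after TOP-1/DPY-27 depletion, namely lpr-1, lpr-3 and egg-6. The TOP-1 libraries of lpr-3, at 1966 and 4648 normalized counts, overlapped the control, at 14332 and 4227, while those of lpr-1 and egg-6 lay below it. The median log2 fold change of the precuticle list was -0.40 after TOP-2/DPY-27 depletion and -0.78 after TOP-1/DPY-27 depletion.

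Of 6 furrow collagens (dpy-2, dpy-3, dpy-7, dpy-8, dpy-9 and dpy-10), 0 were called after TOP-2/DPY-27 depletion, at a median of -1.19, and 6 fell after TOP-1/DPY-27 depletion, at a median of -1.85. For dpy-8 the TOP-1 libraries, at 1561 and 2871 normalized counts, overlapped the control, at 8064 and 2577. For the other furrow collagens they lay below it. Of 23 moulting genes, 1 rose (nekl-3) and 1 fell (blmp-1) after TOP-2/DPY-27 depletion, at a median of -0.60. After TOP-1/DPY-27 depletion 1 rose (nekl-3) and 11 fell, at a median of -1.04. The 3 with the smallest adjusted p among those that fell were ptr-18 (-2.96 ± 0.33), mlt-11 (-4.13 ± 0.52) and lin-42 (-2.39 ± 0.40) in the authors' deposited table. Of the moulting genes that fell, nhr-23 had TOP-1 libraries that overlapped the control, at 434 and 833 normalized counts against 2051 and 794. The TOP-1 libraries of the rest lay below the control. Control library a was the higher control library for 20 of 22 moulting genes with a mean of at least 50, where it was so for 5492 of 10531 genes. It was also the higher for the noah genes, though in the whole family only for 10 of 19 members of that mean.

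Markers of the cells that make these proteins were mixed. Of 8 seam cell markers 1 rose after TOP-2/DPY-27 depletion, and 1 rose and 1 fell after TOP-1/DPY-27 depletion, where lin-22 was the gene that rose in both and egl-18 the one that fell. Their summed normalized counts were 2001 and 1529 after TOP-2/DPY-27 depletion and 1527 and 1522 after TOP-1/DPY-27 depletion, against 2795 and 1734 in the control. Of 8 hypodermis markers 2 fell after TOP-2/DPY-27 depletion (lin-26 and che-14) and 4 after TOP-1/DPY-27 depletion. The hypodermis sums were 50255 and 46543 after TOP-2/DPY-27 depletion and 36578 and 32002 after TOP-1/DPY-27 depletion, against 54067 and 43045 in the control. Of 8 markers of glia, 1 rose (vap-1) and 3 fell (ptr-10, grl-2 and lin-48) in each depletion. Proteins of the pharyngeal cuticle, the abu genes, rose for 7 of 8 after TOP-2/DPY-27 depletion and for 6 of 8 after TOP-1/DPY-27 depletion, summing to 10841 and 26657 normalized counts after TOP-2/DPY-27 depletion and to 11186 and 5511 after TOP-1/DPY-27 depletion, against 331 and 497 in the control. No marker in these lists was at 0 in both control libraries, and the part of these cells in the values of the family was not tested.

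The 37 genes lie on all chromosomes, 8 on I, 9 on II, 4 on III, 6 on IV, 5 on V and 5 on X. The 5 X-linked members (cut-5, cutl-3, cutl-11, cutl-21 and cutl-29) had a median log2 fold change of -0.09 after TOP-2/DPY-27 depletion and of -0.11 after TOP-1/DPY-27 depletion, with cutl-29 called lower in both and no other called. Of all X-linked genes tested, 53 of 2330 were called lower and 571 higher after TOP-2/DPY-27 depletion. After TOP-1/DPY-27 depletion 83 of 2325 were called lower and 802 higher. Over all X-linked genes whose mean was 10 or more, the median was 0.54 after TOP-2/DPY-27 depletion and 0.68 after TOP-1/DPY-27 depletion, and the difference of the 5 from them was not tested. With the median of the X or of the autosomes subtracted from each gene, the members called were the same in both comparisons, and cutl-29 was at -1.54 after TOP-2/DPY-27 depletion and -2.43 after TOP-1/DPY-27 depletion.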

How the data were processed

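Per the labels' protocols, polyadenylated RNA was sequenced as stranded libraries by the dUTP method. Tools named in the submitters' processing notes are DESeq2 1.30.0, HTSeq 0.13.5, HISAT2 2.2.1, CASAVA 1.8 and Cufflinks 2.2.1. The build of the genome, and whether counting used strand, are not given in the sources used here. No coordinates are therefore given. The authors deposited a mean normalized count per gene, a signal that is never negative, with the log2 fold change of depletion over control, its SE, a Wald score, and the p-value before and after adjustment, under the column names of DESeq2, per the file headers. The score is the fold change over its SE. Fits without shrinkage to the solved reads, described below, returned these log2 values for the genes refitted.

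From those values, whole reads per library were solved with Python 3.11.15 and numpy 2.4.6: 4 times the mean is a sum of whole reads divided by size factors, and the size factors were read from genes with 2 reads in all. A refit of the solved reads, with the dispersion set to return the deposited SE, returned the deposited log2 fold changes of 12070 genes to within 3.34e-05. For genes of higher mean, agreement to within 0.0001 was a condition of the solution, so there it is no separate check. Simulated reads were solved correctly for 300 of 300 genes. These were drawn from 10459 genes that left out the highest means and the lowest control reads. The simulation therefore did not cover cut-2, noah-1 and noah-2, whose means are higher. Solving was not tried for genes with a mean above 10000 (25000 for listed genes). The reads were divided by median-of-ratios size factors over 6 libraries, which moved the median gene by -0.03 (TOP-2/DPY-27 depletion) and -0.01 (TOP-1/DPY-27 depletion) on the log2 scale from the deposited scale.

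Genes were called at the deposited adjusted p under 0.05. Members without an adjusted p stayed so. The difference between depletions was a Wald test on the deposited fold changes with Benjamini-Hochberg adjustment over 13027 genes (mean 10 or more in both tables). In simulated fold changes it recovered 184 of 200 genes changed by 4 on the log2 scale. The differences of the members were smaller, from -2.003 (cut-5) to 1.48 (cutl-10), and recovery at such sizes was not simulated. As an alternative chosen after seeing the data, limma 3.58.1 (R 4.3.3, with trend) was run on log2 of the normalized count plus 1. On simulated reads of the TOP-2/DPY-27 comparison it recovered 165 of 200 genes changed 4-fold, with 0 false calls. Every simulated gene had the same dispersion, while libraries of a group lay further apart for this family than over all genes. Recovery and false calls at the spread of the family were therefore not simulated. Changes of the mean without 1 library are log2 ratios of normalized counts with no pseudocount, and limma values are on the log2 scale with a pseudocount of 1, which understates changes of low genes. Levels per kb used exonic lengths of Ensembl release 115 (WBcel235), to which 98.13% of gene names matched. Reads are not independent molecules, and limits from a count of 0 cover counting error only.

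Values were given in full for members called in either comparison and for cut-2, cut-4, cut-5, cut-6, noah-1 and noah-2. Fewer were given for the rest, cut-1 and cut-3 among them. The members and the gene lists were chosen with earlier results of these data known. Sequences of the proteins and promoters are not used here.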

Additional observations from a re-analysis of the deposited data

Results flagged for a closer look

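For cut-5, the TOP-2 libraries lay below both control libraries and the TOP-1 libraries above them, so the depletions moved apart in every library. The share of all genes with the depletions on opposite sides of the control was not counted, so how unusual this is remains unknown. Lack of overlap with the control was common. Of genes whose mean was 10 or more, 34.1% had both TOP-2 libraries below both controls. Both TOP-1 libraries lay above both controls for 34.8%. With the median of the X subtracted the difference of cut-5 between the depletions was -1.87 (adjusted p 0.9996). The difference of log2 fold changes was -2.003 ± 1.08 (Wald p 0.0631, adjusted 0.9997), and limma on the 4 depletion libraries gave -1.99 (adjusted p 0.112). The read numbers behind it were 15 and 7 after TOP-2/DPY-27 depletion and 47 and 35 after TOP-1/DPY-27 depletion, against 26 and 18 in the control.

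For cutl-21, the TOP-2 libraries lay above both control libraries and the TOP-1 libraries below them, at 123.5 and 130.2 normalized counts after TOP-2/DPY-27 depletion and 104.89 and 58.7 after TOP-1/DPY-27 depletion, against 107.5 and 104.99 in the control. TOP-1 library a and control library b thus lay less than the worth of a single read apart, and the lack of overlap rests on that gap. The difference of log2 fold changes was 0.65 ± 0.63 (Wald p 0.298, adjusted 0.9997), and limma gave 0.68 (adjusted p 0.327). Here too the share of all genes with both features was not counted. Taken singly, 32.5% of genes whose mean was 10 or more had both TOP-2 libraries above both controls. Both TOP-1 libraries lay below both controls for 36.7%.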

How the results depend on the processing

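The members called stayed the same with Benjamini-Hochberg adjustment over every gene with a p or over those whose mean is 10 or more, and with the median of the X or the autosomes subtracted. At an adjusted p under 0.01, the TOP-2/DPY-27 comparison kept 2 higher and 5 lower (without cutl-14, cutl-16 and cutl-29), and the TOP-1/DPY-27 comparison kept all its calls. Over all genes that threshold called 1547 higher and 678 lower of 14958 after TOP-2/DPY-27 depletion. After TOP-1/DPY-27 depletion it called 1843 higher and 1276 lower of 14854. By limma on all libraries, 2 members rose and 8 fell after TOP-2/DPY-27 depletion (cutl-26 gained, cutl-14 lost), and 2 rose, cut-5 added, and 11 fell after TOP-1/DPY-27 depletion. In limma fits that leave out 1 library, the members called lower numbered 2 to 4 and those called higher 1 to 2 after TOP-2/DPY-27 depletion, and 6 to 12 and 0 to 1 after TOP-1/DPY-27 depletion. Over all genes the same fits called 363 to 551 lower and 1091 to 1194 higher of 12926 after TOP-2/DPY-27 depletion, and 772 to 2209 lower and 1451 to 2775 higher of 13005 after TOP-1/DPY-27 depletion. Between the depletions 0 to 1 members were called higher and 0 lower in these fits, and 0 under the other alternatives. Fewer libraries are in each such fit. With all libraries, limma called 897 genes lower and 1830 higher after TOP-2/DPY-27 depletion, and 2001 lower and 2520 higher after TOP-1/DPY-27 depletion. A call lost with 1 library left out therefore need not be particular to that gene. The change of cut-2 after TOP-2/DPY-27 depletion was reversed by limma on all libraries (-0.058), and ran from -1.16 (without TOP-2 library b) to 1.05 (without TOP-2 library a) with 1 library left out, at -0.39 without control library a. Its difference between the depletions ran from -0.71 to 1.51 and that of noah-2 from -0.034 to 1.55, the lower value of each being without TOP-2 library b and the higher without TOP-2 library a, and the cause was not tested. The median mismatch of the control level between the tables was 0.00253 with 2 control libraries, and 0.027 with 3 or 0.0459 with 4. No paired analysis was possible because the deposited tables hold no values by replicate number and the solved reads do not show which library carries which number. With 2 libraries a group, the SE of fold changes (log2) had a median of 0.413 in the TOP-2/DPY-27 table and 0.397 in the TOP-1/DPY-27 table, which limits what either test could detect.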
